A study of Homo sapiens with 27 samples.

Results

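The response of control U2OS cells to reaching confluence was read from the difference between 3 confluent and 3 subconfluent libraries of the same cell line. U2OS is a human osteosarcoma line, and the control line was stably transduced with the empty pLKO.1 vector, a lentiviral shRNA backbone that carries no hairpin against any gene. The subconfluent cells were collected at day −2, after plating at low density, and the confluent cells at day 0, when the dish was covered. Both groups therefore share the line, the vector and the medium, and differ in density and in days of culture, which cannot be told apart here. Whether the medium was renewed between the days is not stated, so its age may differ as well. The members are all genes that passed a low-count filter in these 6 libraries, 19317 of the 55882 gene symbols in the series, whose 27 libraries cover 3 lines at 3 days. The other lines, MMP2sh1 and MMP2sh2, carry an shRNA against MMP2, and they and the overconfluent control cells of day +2 are used only to show where the same genes stood elsewhere. Replicates are described as independent biological replicates of 1 stable line each.

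Cells that touch on all sides receive less mitogenic and mechanical input than cells spread on open plastic. In untransformed cells this contact inhibition withdraws cells from the cycle, closes off the YAP and TEAD program, slackens actin stress fibers and lets matrix accumulate, whereas many tumor lines keep dividing past confluence. Dense cultures also draw down glucose, amino acids and growth factors in the medium, to which FOXO, ATF4 and sterol-sensing transcription factors respond.

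Poly(A) RNA was sequenced and the authors deposited read counts per gene. Counts on genes were 59374327, 43980535 and 35135375 in the 3 subconfluent libraries and 44964819, 45180727 and 40449661 in the confluent ones. Levels below are CPM, counts relative to the library total after TMM scaling, and are given in the order of replicates 1, 2 and 3. Because CPM is not divided by gene length, levels are compared between days for the same gene and not between genes. Reads that fell on no gene were 6.56% to 6.60% of all those counted at day −2 and 8.42% to 9.14% at day 0, so that the groups did not overlap, and the part of this difference in the results was not tested. Mitochondrial genes took 4.16% to 5.30% and 4.67% to 5.42% of counts. Of 12 markers of mesenchymal and osteosarcoma cells, 9 passed the filter, among them VIM (755 to 817 CPM over the 6 libraries), SPARC (1216 to 1305 CPM) and RUNX2 (35.8 to 54.3 CPM), while COL1A2 and NT5E stayed under 0.44 and 0.13 CPM and TWIST1 had no read. CD3E, CD68, LYZ and TYROBP of the 10 blood cell markers had no read either. PTPRC, another of that list, had 0.207, 0.236 and 0.320 CPM at day −2 and 1.17, 0.925 and 1.43 CPM at day 0, and LAPTM5 0.843, 0.401 and 0.466 and 1.49, 1.10 and 1.41 CPM. These 2 were called higher, and their part in other results was not tested.

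Reaching confluence changed a large share of the transcriptome by small amounts. Of the 19317 genes tested, 6864 (35.5%) had an adjusted p under 0.05 in the quasi-likelihood test of edgeR (Benjamini-Hochberg), which is behind every adjusted p below unless another tool is named. The calls comprised 3173 genes that were higher at day 0 (16.4% of those tested) and 3691 that were lower (19.1%). These shares are the background for each count of list members called at this step. The groups of day −2 and day 0 overlapped in only 337 of the 6864 called genes, so groups that stand apart are usual for a called gene. The median size of the change among called genes was 0.37 on the log2 scale, and 657 called genes rose and 262 fell by more than 2-fold. With at least 5 CPM on average, 101 rose and 68 fell by more than 2-fold. The median of all genes tested was 0.02 on the log2 scale. The split into higher and lower depends on the scaling, since upper-quartile scaling gave 3772 higher and 3063 lower genes out of 6835. It also went with level. In the most abundant quintile of protein-coding genes 44.5% were lower and 13.6% higher, and in the 4th quintile 33.8% and 18.9%. The part of abundance in the list counts below was not tested.

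**Figure D1:**
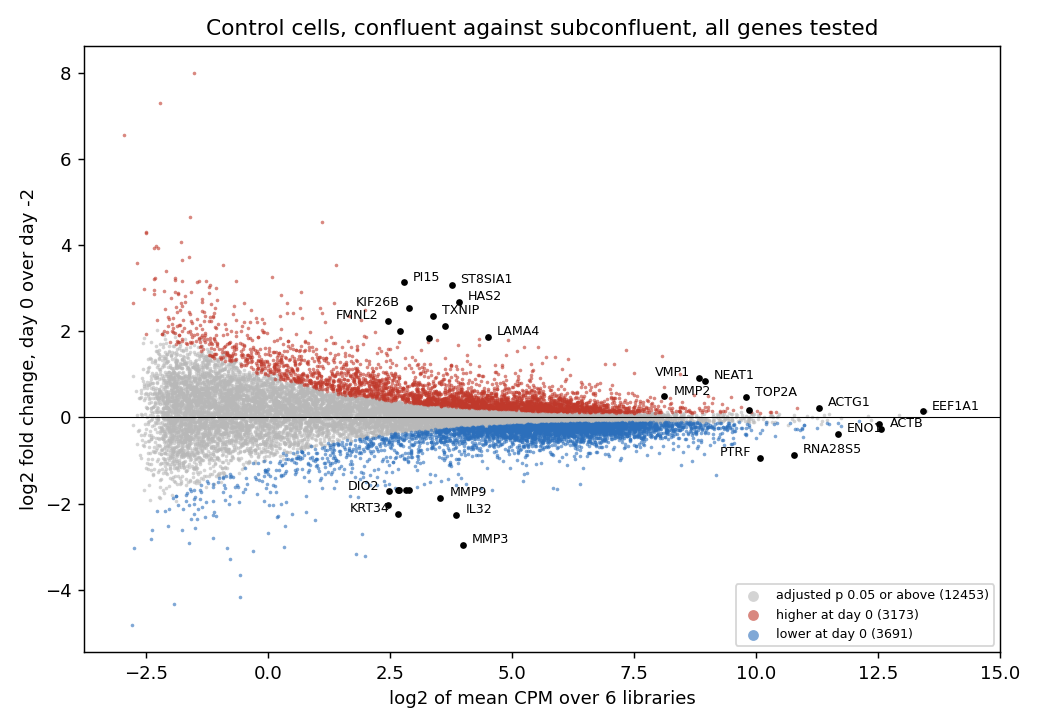
Each point is 1 of 19317 genes, with the log2 of its mean CPM over 6 libraries on the horizontal axis and its log2 fold change from day −2 to day 0 on the vertical axis. Red points (3173) were higher and blue points (3691) lower at day 0 at an adjusted p under 0.05, grey points (12453) were not called, and black points mark MMP2, CTSB and the genes named for the largest changes in fold or in CPM, some of them labelled.

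The 10 largest rises, among called genes with at least 5 CPM on average and groups that did not overlap, included genes of different kinds. ST8SIA1, the sialyltransferase that makes ganglioside GD3, was at 2.34, 3.11 and 3.32 CPM at day −2 and 27.5, 22.1 and 22.9 CPM at day 0, an 8.41-fold rise (log2 fold change 3.07, standard error 0.13, adjusted p = 2.0e-16). HAS2, a hyaluronan synthase, went from 4.16, 3.77 and 4.31 CPM to 29.7, 24.98 and 23.8 CPM, or 6.41-fold (log2 fold change 2.68, standard error 0.11, adjusted p = 2.0e-16). PI15, a secreted protease inhibitor, rose from 1.34, 1.86 and 0.989 CPM to 14.6, 12.2 and 10.4 CPM (8.78-fold). In all 3 genes, which were chosen among those with groups apart, the lowest confluent library was several times above the highest subconfluent library. KIF26B, an atypical kinesin, rose by 2.55 on the log2 scale, FMNL2, a formin that elongates actin filaments, by 2.25, a lncRNA known only by its clone by 2.00 and PDE4B, a cAMP phosphodiesterase, by 1.85. The other 3 of the 10 largest rises, TXNIP, RNF43 and LAMA4, are described with their groups.

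The 10 largest falls, chosen by the same rule, included 3 extracellular metalloproteinases. MMP3 (stromelysin-1) was at 29.4, 30.9 and 23.9 CPM at day −2 and 3.42, 3.87 and 3.62 CPM at day 0, a 7.74-fold fall (log2 fold change −2.95, standard error 0.11, adjusted p = 5.0e-17). MMP9 (gelatinase B) fell from 15.7, 19.4 and 19.4 CPM to 5.12, 4.11 and 5.61 CPM, and ADAMTS1, which cleaves versican and other proteoglycans, from 9.96, 10.8 and 8.29 CPM to 2.92, 2.64 and 3.55 CPM. That none of these groups overlapped was a condition of the choice. The cytokine IL32 went from 22.8, 27.1 and 22.1 CPM to 4.52, 4.60 and 5.86 CPM (4.82-fold lower, adjusted p = 1.3e-14). KRT34, a hair keratin, fell by 2.23 on the log2 scale, DIO2, the deiodinase that activates thyroid hormone, by 1.72, HKDC1, a hexokinase-like protein, by 1.68, and SLAMF7 and CCDC147 by 1.69 each. CTD-2319I12.1, a symbol of unnamed function, fell by 2.03.

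**Figure D2:**
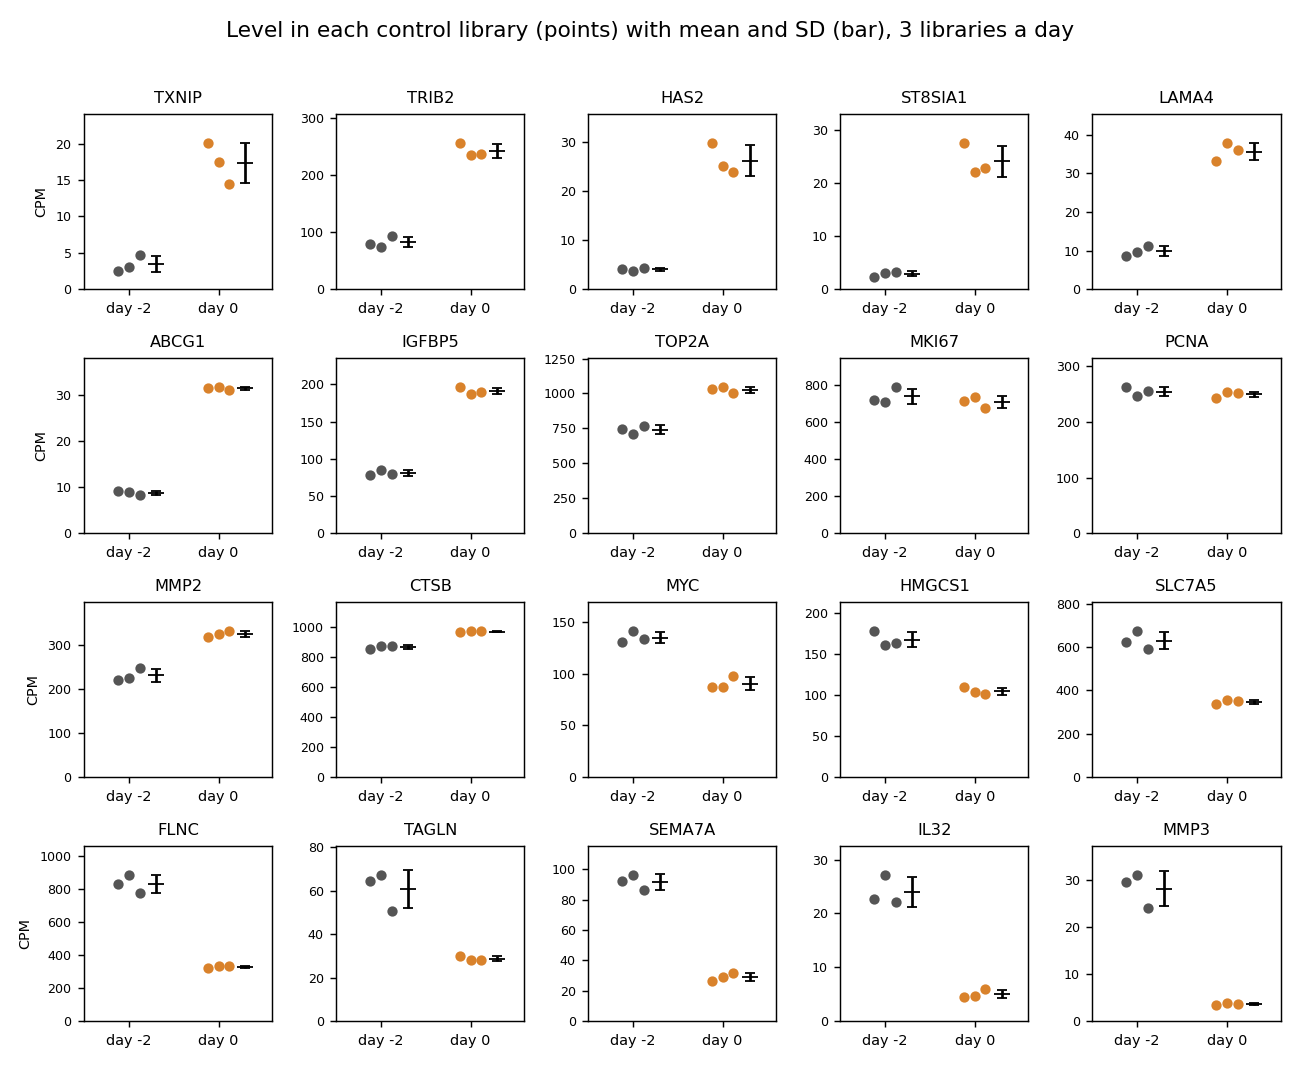
Each panel shows the CPM of 1 gene in the 3 control libraries of day −2 (grey) and of day 0 (orange), with the mean and SD as a bar beside them and an axis that starts at 0. TXNIP, TRIB2, HAS2 and ST8SIA1 separate widely upward, MMP3, IL32 and FLNC downward, whereas the points of MKI67 and PCNA overlap between days.

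The largest changes on the CPM scale, which favors abundant and long mRNAs, ranged from small to nearly 2-fold in proportion. EEF1A1, the translation elongation factor, rose from 10340.1 ± 251 to 11405 ± 63.2 CPM (SD, n = 3), and cytoplasmic γ-actin, ACTG1, from 2291 ± 72.5 to 2685 ± 64.2 CPM. VMP1, a membrane protein of autophagosome formation, almost doubled, from 309.6, 319 and 317 CPM to 602, 584 and 613 CPM (log2 fold change 0.93, standard error 0.04). The nuclear lncRNA NEAT1 rose from 323, 394 and 341 CPM to 607, 661 and 639 CPM. β-Actin, ACTB, fell from 6597 ± 424 to 5505 ± 48.3 CPM while ACTG1 rose, and both kept these directions in all 15 alternative fits. The glycolytic enzyme ENO1 fell from 3709.8 ± 84.7 to 2830.3 ± 86.6 CPM, and PTRF, the coat protein cavin-1 of caveolae, from 1476, 1484 and 1324 CPM to 736, 708 and 782 CPM, a 1.92-fold fall. RNA28S5, a ribosomal RNA symbol, and ribosomal RNA is largely removed by poly(A) selection, was at 1769, 1893 and 3095 CPM at day −2 and 1127, 1261 and 1314 CPM at day 0, and MT-CO3 was at 5642, 6845 and 6143 CPM at day −2 and 5290.2, 5852 and 5495 CPM at day 0, with groups that overlapped and a call that 5 of the 15 alternatives lost (log2 fold change −0.23 to −0.09 with 1 library left out).

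Cell cycle genes were called in both directions and by small amounts when the cells reached confluence. MKI67, the classical proliferation marker, was at 717, 709 and 787 CPM at day −2 and 712, 736 and 675 CPM at day 0 (log2 fold change −0.06, standard error 0.04, adjusted p = 0.33), and PCNA, the replication clamp, at 262, 246 and 255 CPM at day −2 and 244, 253 and 251 CPM at day 0 (log2 fold change −0.03, standard error 0.04, adjusted p = 0.63). The groups of both genes overlapped. Of 42 DNA replication genes tested, 9 were higher, 9 lower and 24 not called, with a median log2 fold change of −0.04, against 16.4% higher and 19.1% lower of all genes. The balance depends on the fit, with 13 higher and 6 lower under upper-quartile scaling and 8 and 13 with DESeq2. UHRF1, which maintains DNA methylation behind the fork, fell from 198, 201 and 196 CPM to 161, 162 and 162 CPM, the licensing factor CDC6 by 0.27 and GINS1 of the replicative helicase by 0.25 on the log2 scale, while POLE, the leading strand polymerase, rose by 0.22. Without replicate 2 of day −2 or replicate 1 of day 0, 4 or 5 replication genes were called higher.

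Mitotic genes leaned upward among the calls, with 16 of 44 higher, 7 lower and a median of 0.01. TOP2A, topoisomerase IIα, was at 746, 709 and 768 CPM at day −2 and 1030.3, 1044 and 1000.0 CPM at day 0 (log2 fold change 0.47, standard error 0.04, adjusted p = 6.0e-10). The kinetochore motor CENPE rose from 73.6, 71.2 and 80.3 CPM to 124, 117 and 111 CPM and its partner CENPF from 338, 322 and 385 CPM to 509.7, 531 and 472 CPM, without overlap, and the kinetochore subunit NUF2 by 0.36 on the log2 scale. Leaving out replicate 2 of day −2 reduced the calls to 9 higher and 4 lower. With an offset for GC content, 12 were higher and 8 lower, with a median of −0.002. In that fit CENPE rose by 0.47, CENPF by 0.44, TOP2A by 0.36 and NUF2 by 0.23 on the log2 scale. The promoters of mitotic genes are known for cell cycle homology regions (CHR), which tie them to late cell cycle phases, and RefSeq promoter windows (250 bases before to 50 after the start, GRCh38.p14) are shown for the pair of called genes below because both hold the CHR letters TTTGAA, which are in capitals on either strand.
CENPF (chr1:214602945-214603244, plus strand): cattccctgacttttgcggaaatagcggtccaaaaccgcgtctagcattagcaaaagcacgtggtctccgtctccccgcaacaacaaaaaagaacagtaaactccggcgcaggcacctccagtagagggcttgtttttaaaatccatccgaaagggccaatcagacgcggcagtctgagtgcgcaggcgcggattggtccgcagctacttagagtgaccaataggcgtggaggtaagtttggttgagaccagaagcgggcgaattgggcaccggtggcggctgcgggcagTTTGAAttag
TOP2A (chr17:40417847-40418146, minus strand): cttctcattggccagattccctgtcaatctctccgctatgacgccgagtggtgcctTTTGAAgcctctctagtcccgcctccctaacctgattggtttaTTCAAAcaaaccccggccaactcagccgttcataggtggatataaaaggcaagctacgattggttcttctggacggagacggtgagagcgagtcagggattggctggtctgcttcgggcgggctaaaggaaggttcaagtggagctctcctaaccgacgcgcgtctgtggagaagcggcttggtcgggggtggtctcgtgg
The match of CENPF lies 40 to 45 bases after the start. CENPE, which rose by 0.64 on the log2 scale, held no match, and NUF2 held 1. TTTGAA occurred in 27 of 37 mitotic promoters with a window, in 13 of the 15 among those genes that were called higher, in 4 of the 5 called lower, in 1 of 35 DNA replication promoters, and in 15.4% of all 27305 promoters searched. Among promoters of genes tested, 9.91% held it. Motif matches in this report are descriptions of letters in these windows, on both strands, and of the genes tested 11206 had a window.

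Regulators of G1 moved in several directions. Of 28 cyclin, CDK and inhibitor genes tested, 11 were higher and 8 lower, against 16.4% and 19.1% of all genes tested. MYC, the growth-promoting transcription factor, fell from 131, 142 and 134 CPM to 86.9, 87.1 and 97.8 CPM (log2 fold change −0.58, standard error 0.05, adjusted p = 1.3e-09), without overlap, and the CDK-activating phosphatase CDC25A fell from 66.9, 63.5 and 65.3 CPM to 47.4, 44.03 and 45.4 CPM. MXD4, a partner of MAX that antagonizes MYC, rose by 0.47. Among CDK inhibitors, CDKN1A (p21) fell from 193, 193 and 177 CPM to 143, 133 and 143 CPM and CDKN1B (p27), a classical mediator of contact inhibition, rose from 72.8, 70.6 and 71.6 CPM to 88.6, 82.6 and 83.5 CPM (log2 fold change 0.24, standard error 0.05). CDKN1C (p57) had a log2 fold change of 0.23 with an adjusted p of 0.063, below the threshold in 4 of the 15 alternative fits. CDKN2B (p15) was called higher at very low levels, from 0.0688, 0.0236 and 0.0291 CPM to 0.821, 0.280 and 0.729 CPM. Cyclin D1, CCND1, was at 290.4, 281 and 288 CPM at day −2 and 308, 293 and 294 CPM at day 0 and was not called (adjusted p = 0.31), nor was E2F1 (log2 fold change −0.06). Cyclin E2, CCNE2, rose by 0.36 with an adjusted p of 0.027, a call that 5 of the 15 alternatives lost. Without replicate 1 of either day, 7 genes of this list were higher.

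Ribosome production genes fell without exception among the calls. Of 30 ribosome biogenesis genes, 23 were lower and 0 higher, with a median log2 fold change of −0.25, against a background in which 19.1% of genes tested were lower. BOP1, which processes the large subunit rRNA, fell from 45.6, 45.2 and 46.1 CPM to 28.3, 26.6 and 31.7 CPM, RRP12, an export factor of both subunits, from 89.4, 90.96 and 87.98 CPM to 55.3, 61.5 and 54.3 CPM, NOP16 from 28.5, 32.8 and 27.9 CPM to 19.3, 18.5 and 19.4 CPM and GAR1, a core protein of H/ACA snoRNPs, from 45.3, 46.7 and 35.7 CPM to 33.98, 25.2 and 29.6 CPM. The groups stood apart in each of these 4, as in most called genes. Of the cytosolic ribosomal proteins themselves, 3 were higher and 7 lower of 42, with a median of −0.04. Upper-quartile scaling turned this balance to 8 higher and 5 lower with a median of 0.00, and the GC offset to 6 and 4. Leaving out replicate 3 of day −2 raised the count of lower ribosomal protein genes to 15, leaving out replicate 3 of day 0 to 11, and leaving out replicate 1 or 2 of day −2 or replicate 2 of day 0 reduced it to 4, and without the last of these libraries 6 were higher. RPLP1 fell by 0.24 and RPL8 by 0.24 on the log2 scale, RPS15 by 0.25 and RPLP2 by 0.22, the last 2 with groups that overlapped. RPLP2 lost its call in 5 of the 15 alternatives and RPS15 in 1 (DESeq2).

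Genes of glucose sensing and FOXO control were called higher more often than lower. TXNIP, the arrestin-like protein that restrains glucose uptake and thioredoxin, was at 2.51, 3.11 and 4.74 CPM at day −2 and 20.04, 17.4 and 14.5 CPM at day 0, a 5.14-fold rise (log2 fold change 2.36, standard error 0.16, adjusted p = 5.8e-12). TRIB2, a pseudokinase induced by FOXO factors, was at 79.9, 74.7 and 92.96 CPM at day −2 and 255, 235 and 236 CPM at day 0 (log2 fold change 1.56, adjusted p = 4.7e-17). SESN3, a sestrin that dampens mTORC1, rose from 39.9, 38.3 and 41.8 CPM to 105, 105 and 96.4 CPM, and ARRDC3, an arrestin related to TXNIP, from 23.1, 22.3 and 23.3 CPM to 48.7, 48.3 and 49.6 CPM. All 4 genes separated the days without overlap, as did most called genes. Of 27 genes in this list, 12 were higher, 2 lower and the median was 0.23. PDK4, the kinase that inhibits pyruvate dehydrogenase, was higher at low levels, from 0.792, 1.04 and 1.25 CPM to 2.55, 2.92 and 2.11 CPM. The promoters of TXNIP and TRIB2 are shown because both hold the FOXO core letters GTAAACA, in capitals, 124 to 118 bases before the start of TXNIP and on the opposite strand at the far end of the window of TRIB2.
TXNIP (chr1:145996530-145996829, minus strand): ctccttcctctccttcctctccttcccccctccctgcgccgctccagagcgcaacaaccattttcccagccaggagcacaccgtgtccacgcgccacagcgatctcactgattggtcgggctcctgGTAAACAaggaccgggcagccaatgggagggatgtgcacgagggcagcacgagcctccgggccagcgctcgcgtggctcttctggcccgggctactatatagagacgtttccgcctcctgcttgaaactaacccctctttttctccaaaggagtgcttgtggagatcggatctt
TRIB2 (chr2:12716686-12716985, plus strand): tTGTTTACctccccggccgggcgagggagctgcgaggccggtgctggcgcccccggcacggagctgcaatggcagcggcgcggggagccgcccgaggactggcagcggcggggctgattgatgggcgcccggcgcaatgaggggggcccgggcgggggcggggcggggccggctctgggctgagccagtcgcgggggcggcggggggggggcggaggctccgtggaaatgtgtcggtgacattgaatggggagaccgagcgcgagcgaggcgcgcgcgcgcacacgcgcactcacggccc
GTAAACA was found in 4 of the 24 promoters of this list that had a window (16.7%), in 3.41% of all promoters and in 2.3% of those of genes tested. It was present in 3.39% of the promoters of all genes called higher and in 1.61% of those called lower. Besides TXNIP and TRIB2, the matches in the list were in FOXO4 and BTG1, neither of which was called. The higher genes SESN3, ARRDC3 and PDK4 held no match. The list was drawn up from known FOXO and glucose responders, so a match in it is not independent of its choice.

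Genes of the insulin-like growth factor axis were called in both directions. IGFBP5, an abundant bone matrix binding protein, was at 78.03, 85.00 and 79.1 CPM at day −2 and 196, 187 and 189 CPM at day 0 (log2 fold change 1.24, standard error 0.05, adjusted p = 5.0e-17). IGFBP7 rose from 25.5, 27.8 and 33.3 CPM to 52.8, 52.7 and 52.9 CPM and IGFBP4 from 77.8, 84.04 and 82.98 CPM to 126, 115 and 123 CPM, whereas IGF2R, the receptor that clears IGF2, fell by 0.30. In all, 4 of 16 genes were higher and 4 lower, near the 16.4% and 19.1% of all genes tested. Without replicate 3 of day −2, 7 were higher, and 6 were higher and 3 lower under upper-quartile scaling.

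Cholesterol genes of synthesis and uptake were mostly lower, while the exporters ABCG1 and ABCA1 were higher. Of 27 genes tested, 20 were lower and 3 higher, with a median log2 fold change of −0.34, the lowest of the larger lists. HMGCS1, the entry enzyme, fell from 178, 161 and 164 CPM to 109, 103 and 101 CPM (log2 fold change −0.68, standard error 0.05, adjusted p = 2.1e-11), and SQLE, the squalene epoxidase, from 221, 214 and 219.9 CPM to 139.8, 141 and 141 CPM. The 3 genes that rose were ABCG1 and ABCA1, the cholesterol exporters, and the ubiquitin ligase MYLIP, all 3 known targets of the sterol-activated LXR receptors. ABCG1 was at 9.17, 8.91 and 8.35 CPM at day −2 and 31.5, 31.7 and 31.2 CPM at day 0, a 3.56-fold rise (adjusted p = 1.7e-15). ABCA1 rose by 0.88 (adjusted p = 0.019) and MYLIP by 0.55 on the log2 scale. Lower calls were stable in this list, with 20 in each of the 6 fits that left out a library, while 2 to 3 genes were higher in those fits.

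The promoter of HMGCS1 is shown for its CCAAT boxes, which in sterol genes bind NF-Y beside SREBP. Both are on the opposite strand and read ATTGG in capitals.
HMGCS1 (chr5:43313363-43313662, minus strand): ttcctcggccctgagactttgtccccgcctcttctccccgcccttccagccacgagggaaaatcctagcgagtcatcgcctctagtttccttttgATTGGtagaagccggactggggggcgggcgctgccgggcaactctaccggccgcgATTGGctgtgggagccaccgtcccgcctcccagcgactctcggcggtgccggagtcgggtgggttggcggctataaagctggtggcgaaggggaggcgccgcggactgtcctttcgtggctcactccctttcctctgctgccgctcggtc
CCAAT was found in 16 of the 20 sterol promoters with a window and in 12 of the 14 whose genes were lower, against 35.7% of all promoters. The sterol element searched as TCACNCCAC was in 1 of the 20, that of SREBF2, and in 1.15% of all promoters. Fatty acid genes were mixed, 4 higher and 8 lower of 20, with SREBF1, the factor that drives them, up by 0.42 and the elongase ELOVL6 up by 0.37, while the desaturase-like FADS3 fell by 0.72 and the elongase ELOVL1 by 0.45.

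Glycolytic and hypoxia-responsive genes fell more often than they rose, 19 against 5 of 34, with a median of −0.16. The hexokinases HK2 and HK1, which commit glucose to the cell, fell from 33.95, 33.6 and 33.3 CPM to 22.1, 22.9 and 20.6 CPM and from 268, 273 and 259 CPM to 181, 194 and 208 CPM. PFKFB3, which makes the activator of phosphofructokinase, fell by 0.53 and the hypoxia-induced mitophagy receptor BNIP3 by 0.49 on the log2 scale. GAPDH was at 4655, 4602 and 4339 CPM at day −2 and 4326, 4185 and 4236 CPM at day 0 with an adjusted p of 0.048, and it lost this call in 12 of the 15 alternative fits.

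The contractile actin program was lower at confluence. FLNC, filamin C, fell from 830.5, 884 and 775 CPM to 318, 334 and 330.0 CPM, a 2.54-fold change (log2 fold change −1.34, standard error 0.05, adjusted p = 7.6e-18). TAGLN (transgelin) fell from 64.5, 67.2 and 50.6 CPM to 30.03, 27.9 and 28.02 CPM, CNN1 (calponin) from 19.7, 17.2 and 17.4 CPM to 8.84, 8.39 and 8.51 CPM and the LIM protein FHL2 from 132, 133 and 123 CPM to 77.7, 80.6 and 85.6 CPM. The days did not overlap in any of these 4 genes, as in most called genes. In the whole list of actin genes and SRF targets, 16 of 29 were lower and 4 higher, with a median of −0.26. FHL2 is a target of serum response factor, which binds CArG boxes, and its promoter is shown with the CArG box in capitals, 101 to 92 bases before the start.
FHL2 (chr2:105438464-105438763, minus strand): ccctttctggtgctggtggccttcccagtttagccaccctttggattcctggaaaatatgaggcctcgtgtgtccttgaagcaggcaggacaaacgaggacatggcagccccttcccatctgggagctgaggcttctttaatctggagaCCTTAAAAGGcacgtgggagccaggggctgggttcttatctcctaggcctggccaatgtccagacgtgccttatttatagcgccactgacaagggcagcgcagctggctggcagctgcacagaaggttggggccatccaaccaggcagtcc
A CArG box (by its usual consensus) was found in 8 of the 26 promoters of this list with a window, 5 of them lower, 2 higher and 1 not called, and in 1.29% of all promoters. Among promoters of genes tested, 1.08% held such a box. The genes that were higher with such a box were ACTG1 and CNN2. The list holds known SRF targets, so a CArG box in it is not independent of its choice.

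Targets of YAP and TEAD, the transcriptional effectors of the Hippo pathway, were lower in 17 and higher in 3 of 26 cases, with a median of −0.28, but the most used reporters did not move together. CYR61, a matricellular protein, fell from 313, 342 and 292 CPM to 245, 249 and 268 CPM (log2 fold change −0.31, standard error 0.05, adjusted p = 1.7e-05). CTGF was at 143, 142 and 156 CPM at day −2 and 141, 147 and 159 CPM at day 0 and was not called (log2 fold change 0.02, standard error 0.05, adjusted p = 0.8), and its groups overlapped. ANKRD1 went the other way, from 272, 275 and 259.9 CPM to 344, 333 and 331 CPM (log2 fold change 0.32, adjusted p = 7.8e-07). The coagulation initiator F3 fell from 15.5, 18.1 and 11.3 CPM to 8.02, 9.65 and 9.14 CPM and FJX1, a four-jointed homolog of planar polarity, from 128, 139 and 142 CPM to 81.9, 82.4 and 89.4 CPM. CDC42EP3, an effector of CDC42, rose from 45.02, 48.8 and 51.8 CPM to 91.7, 83.5 and 84.7 CPM and the forkhead factor FOXF2 from 16.2, 17.6 and 19.7 CPM to 30.03, 29.5 and 31.7 CPM. The promoter of CTGF, printed under its current RefSeq symbol CCN2, holds the TEAD letters GGAATG at 3 places.
CCN2 (chr6:131951323-131951622, minus strand): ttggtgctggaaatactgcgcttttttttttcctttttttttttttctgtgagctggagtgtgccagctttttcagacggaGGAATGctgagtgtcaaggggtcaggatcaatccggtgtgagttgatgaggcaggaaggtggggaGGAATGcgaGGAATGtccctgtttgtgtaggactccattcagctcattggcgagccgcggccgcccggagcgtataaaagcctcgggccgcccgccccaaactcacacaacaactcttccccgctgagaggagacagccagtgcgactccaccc
GGAATG was in 7 of the 19 YAP and TEAD promoters with a window, and ANKRD1 and FOXF2, both higher, were among the 7, as was the uncalled CTGF. Of the 12 lower genes with a window 3 held it, and 3836 of all 27305 promoters did, as did 11.3% of those of genes tested. The list was drawn up from known targets, so these letters in it are not independent of its choice.

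Genes of the extracellular matrix were called higher more often than lower. Of 37 matrix glycoprotein genes, 19 were higher and 8 lower, with a median of 0.25. LAMA4, a laminin chain of basement membranes, rose from 8.71, 9.61 and 11.3 CPM to 33.2, 37.7 and 35.96 CPM (3.64-fold, adjusted p = 6.3e-15). LUM (lumican), a collagen fibril proteoglycan, rose from 15.8, 16.8 and 16.5 CPM to 35.4, 33.4 and 33.3 CPM, EFEMP1 (fibulin-3) from 118, 116 and 121 CPM to 242, 246 and 242 CPM, and LTBP3, which stores latent TGF-beta, from 70.4, 79.2 and 85.1 CPM to 129, 132 and 143 CPM. Fibronectin, FN1, was at 653, 803 and 802 CPM at day −2 and 827, 988 and 875 CPM at day 0, a rise of 0.25 on the log2 scale (adjusted p = 0.0017) that was not called with DESeq2 (adjusted p = 0.11) or with 27 libraries in 1 fit. MGP and DCN, a calcification inhibitor and a fibril proteoglycan, were called higher at under 1 CPM.

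Collagens were divided, 10 of 33 higher and 8 lower, against 16.4% and 19.1% of all genes tested. With DESeq2 the counts were 8 and 9, and 6 were higher without replicate 1 of day 0. The fibrillar collagens COL3A1 and COL5A2 rose from 41.2, 39.99 and 42.2 CPM to 91.03, 87.2 and 89.3 CPM and from 109.6, 115 and 116 CPM to 171, 164 and 169 CPM, and the anchoring fibril collagen COL7A1 from 6.80, 9.71 and 7.74 CPM to 13.96, 17.2 and 16.9 CPM. COL8A1, a short-chain collagen, fell from 61.02, 61.6 and 56.5 CPM to 37.2, 34.2 and 34.9 CPM. COL1A1, the main collagen of bone, was at 1137, 1227 and 1311 CPM at day −2 and 1222, 1321 and 1313 CPM at day 0 and was not called (adjusted p = 0.26).

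Metalloproteinases and their inhibitors moved gene by gene, 12 lower and 5 higher of 23. Besides MMP3, MMP9 and ADAMTS1, the membrane-bound protease ADAM12 fell from 71.6, 70.7 and 74.4 CPM to 39.8, 42.2 and 39.3 CPM and the inhibitor TIMP3 by 0.54 and TIMP1 by 0.27, whereas TIMP2 rose by 0.22 on the log2 scale. MMP13, the collagenase of hypertrophic cartilage and bone, rose from 0.671, 0.424 and 0.756 CPM to 4.17, 3.66 and 2.87 CPM, and MMP2, the gelatinase the study concerns, by 0.49 on the log2 scale. CTSB, the cathepsin that the study names as a second histone protease, was at 854, 877 and 875 CPM at day −2 and 968, 974 and 974 CPM at day 0 (log2 fold change 0.16, standard error 0.04, adjusted p = 0.0013). MMP14, the membrane protease that activates MMP-2, had a log2 fold change of −0.03 and was not called.

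**Figure D3:**
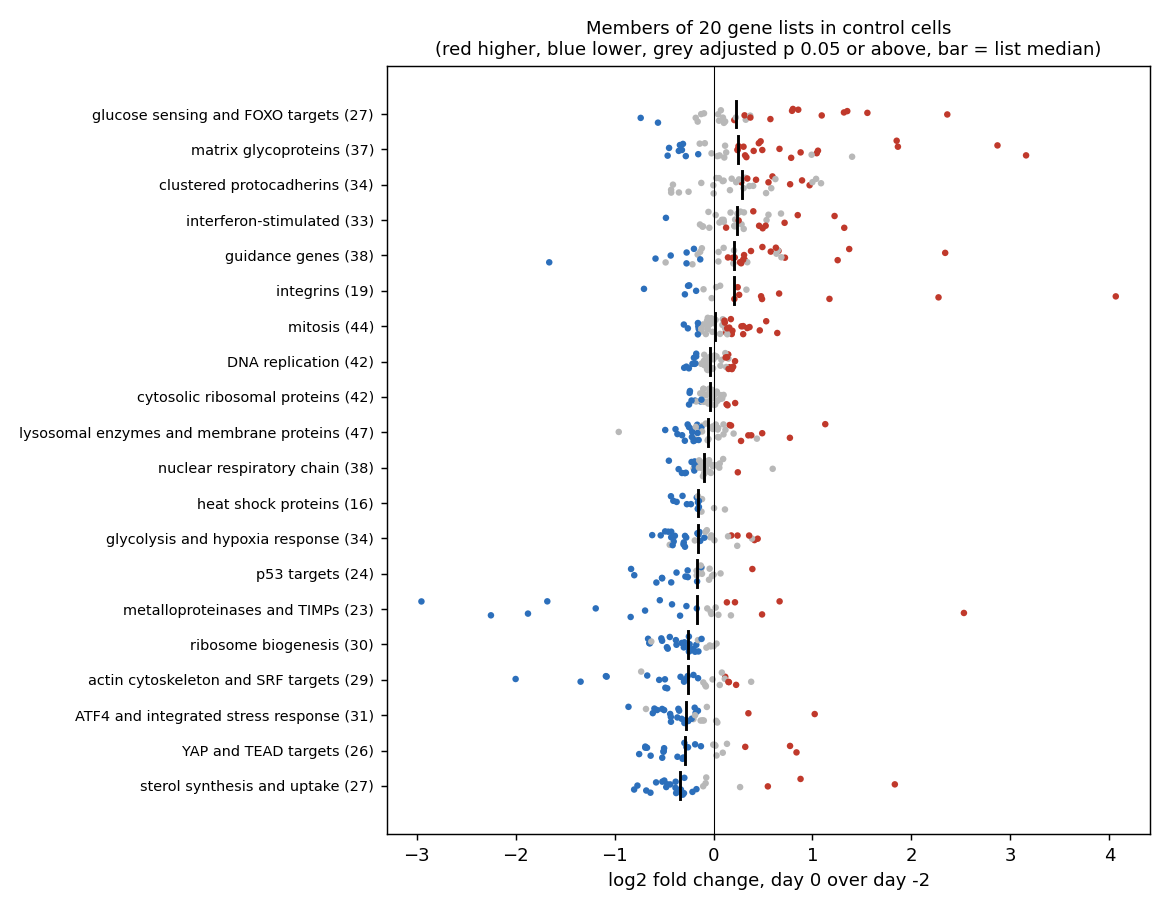
Each point is a gene of 1 of 20 lists (number tested in parentheses), placed by its log2 fold change from day −2 to day 0 in control cells, red where higher, blue where lower and grey where not called, and the black bar is the list median. The medians run from −0.34 for sterol synthesis and uptake to 0.29 for clustered protocadherins, and mitosis and DNA replication lie near 0.

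Cell adhesion genes were called in both directions. N-cadherin, CDH2, fell from 154, 153 and 153 CPM to 120.4, 121 and 122 CPM (log2 fold change −0.34, adjusted p = 7.8e-07), CDH4 by 0.41 and CDH13 by 0.37, while the osteoblast cadherin CDH11 rose from 24.4, 28.1 and 29.4 CPM to 38.1, 39.4 and 37.9 CPM. Of 34 clustered protocadherins, which give cells a surface identity in the nervous system, 8 were higher, 0 lower and 26 not called, against 16.4% higher among all genes, with a median of 0.29, and 27 of the 34 had a log2 fold change above 0. PCDHB10, PCDHB11, PCDHB14 and PCDHB12 rose by 0.89, 0.77, 0.60 and 0.43 on the log2 scale. These near-identical neighbors share reads, which makes single members uncertain, and 5 were called without replicate 1 of day −2 or without replicate 2 of day 0, each of which also lost the call of PCDHB12.

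Integrins, the receptors for matrix, were higher in 9 and lower in 5 of 19 cases. The collagen receptor subunit ITGA11 rose from 1.29, 1.01 and 1.54 CPM to 5.34, 7.01 and 6.17 CPM (4.84-fold), ITGB8, which activates latent TGF-beta, from 33.5, 32.2 and 36.8 CPM to 49.3, 49.4 and 44.1 CPM, and ITGB3 by 0.49 on the log2 scale. The α4 subunit ITGA4 fell from 12.1, 13.1 and 12.5 CPM to 7.78, 8.43 and 6.90 CPM and the fibronectin receptor subunit ITGA5 by 0.29. Guidance genes, which steer axons and migrating cells, were higher in 17 and lower in 7 of 38. SEMA7A, a membrane-anchored semaphorin, fell from 92.3, 96.2 and 86.2 CPM to 26.4, 29.2 and 31.4 CPM (log2 fold change −1.66, standard error 0.06, adjusted p = 5.0e-17). The secreted semaphorins SEMA3A and SEMA3C rose from 7.85, 5.44 and 7.39 CPM to 19.4, 19.1 and 15.1 CPM and from 77.7, 76.1 and 82.3 CPM to 129, 135 and 125 CPM, and the netrin receptor UNC5B from 27.1, 28.8 and 31.3 CPM to 76.05, 65.4 and 65.8 CPM.

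In the WNT pathway, 8 genes were higher and 3 lower of 31, against 16.4% and 19.1% of all genes tested. RNF43, the ligase that removes Frizzled receptors, rose from 5.03, 4.71 and 4.07 CPM to 21.3, 20.1 and 19.2 CPM (log2 fold change 2.12, standard error 0.11, adjusted p = 2.3e-14), and LGR4, the R-spondin receptor that opposes it, from 28.3, 24.96 and 28.7 CPM to 60.98, 57.2 and 54.8 CPM. The ligands WNT5B and WNT7B fell, from 14.7, 16.8 and 14.2 CPM to 5.36, 6.13 and 6.71 CPM and from 8.12, 8.22 and 7.33 CPM to 3.83, 3.14 and 4.57 CPM. TGF-beta and BMP genes were higher in 14 and lower in 10 of 38 cases, beside the same shares of all genes. The ID genes, direct BMP targets that inhibit differentiation factors, rose, ID3 from 101, 103 and 93.2 CPM to 189, 150.0 and 163 CPM, ID4 from 9.05, 10.4 and 9.78 CPM to 19.97, 13.98 and 15.8 CPM, and ID1 and ID2 by 0.48 and 0.62 on the log2 scale. FSTL3, which binds activin, fell from 163, 169 and 166 CPM to 83.4, 85.6 and 99.8 CPM.

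Notch genes were higher in 5 and lower in 4 of 17 cases, against 16.4% and 19.1% of all genes tested. The effector HES1 rose from 26.7, 31.2 and 34.3 CPM to 42.8, 44.7 and 45.1 CPM and the coactivator MAML2 by 0.72, while the Fringe glycosyltransferase LFNG fell from 178, 206 and 200.4 CPM to 113, 117 and 126 CPM. Immediate early and AP-1 genes, which report growth factor and stress signalling, were mixed (9 higher, 12 lower of 30). PHLDA1 was at 20.5, 22.2 and 24.8 CPM at day −2 and 78.2, 66.01 and 65.7 CPM at day 0 (log2 fold change 1.64, adjusted p = 1.4e-15), the ERK-responsive factor ETV5 rose from 34.6, 35.3 and 39.8 CPM to 65.4, 61.99 and 62.1 CPM, and the ERK feedback inhibitor SPRY2 by 0.61, whereas ATF3, a stress-induced factor, fell from 16.3, 17.5 and 14.3 CPM to 9.88, 9.22 and 10.4 CPM.

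Genes of several stress programs were called lower more often than higher, beside 44.5% lower in the most abundant quintile of protein-coding genes. Of 31 genes of ATF4 and the integrated stress response, 20 were lower and 2 higher, with a median of −0.28. SLC7A5, the large neutral amino acid transporter, fell from 624, 673 and 592 CPM to 336, 353 and 352 CPM (log2 fold change −0.86, standard error 0.05, adjusted p = 2.8e-14), ATF5 from 37.9, 42.2 and 34.7 CPM to 25.2, 27.05 and 23.7 CPM, and CHAC1, which degrades glutathione, by 0.61 on the log2 scale. DDIT4 (REDD1), an inhibitor of mTORC1, went against the list from 10.8, 10.1 and 12.02 CPM to 24.5, 23.7 and 18.4 CPM. Endoplasmic reticulum chaperones were lower in 10 of 20 cases and higher in 1, with SDF2L1 and HYOU1, both induced by misfolded proteins, down by 0.54 and 0.39, and the regulators CREB3L1 and XBP1 down by 0.65 and 0.35 on the log2 scale. Heat shock genes were lower in 11 of 16 and higher in 0, with HSF1, the master regulator, at 254, 262 and 268 CPM at day −2 and 194, 202 and 196 CPM at day 0, and BAG3, HSPB1 and DNAJB1 down by 0.43, 0.37 and 0.31.

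U2OS cells keep wild-type p53, and 12 of 24 of its targets were lower and 1 higher. GADD45A, a damage-induced growth arrest gene, fell from 54.8, 56.6 and 53.2 CPM to 31.1, 29.7 and 33.8 CPM, PHLDA3, which restrains AKT, from 119.9, 121 and 132 CPM to 72.9, 60.4 and 76.4 CPM, the nuclease AEN by 0.58 and the apoptosis effector BAX by 0.52 on the log2 scale. NRF2 targets of the antioxidant response were lower in 9 and higher in 2 of 21, TXNRD1 and ME1 down by 0.35 and 0.33, and SRXN1, sulfiredoxin, from 7.04, 7.31 and 5.91 CPM to 2.75, 2.13 and 2.94 CPM, while the transporters ABCC3 and SLC7A11 rose by 0.67 and 0.35. Among 4 metal-responsive genes tested, MT2A was at 662, 759 and 516 CPM at day −2 and 455, 372 and 415 CPM at day 0 and MT1E at 249, 274 and 182 CPM at day −2 and 145, 119.9 and 143 CPM at day 0, both lower, the zinc exporter SLC30A1 fell by 0.59, and MT1X rose by 0.64, a call that was lost without replicate 3 of day −2 (adjusted p = 0.053) or without replicate 1 of day 0 (adjusted p = 0.092). Metallothioneins are close copies of each other, so reads can be split between them.

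Immune genes went in opposite directions. Interferon-stimulated genes were higher in 10 and lower in 1 of 33 cases, with a median of 0.24. With 1 library left out 7 to 8 were higher, with DESeq2 8 and under upper-quartile scaling 11. IFIT1, which binds viral RNA caps, rose from 7.78, 9.21 and 7.27 CPM to 20.8, 17.9 and 18.1 CPM (log2 fold change 1.22, adjusted p = 8.0e-10), IFI44 from 9.90, 9.83 and 11.9 CPM to 18.01, 14.84 and 19.03 CPM, and TRIM22 and DDX60 by 0.50 and 0.53, the latter not called without replicate 2 of day 0. Antigen presentation genes, many of which also respond to interferon, were lower in 7 and higher in 0 of 18. The peptide transporter subunit TAP2 fell from 99.5, 110.3 and 94.6 CPM to 62.3, 63.99 and 65.8 CPM, TAPBP and TAP1 by 0.34 and 0.30, and HLA-E by 0.29. Of 16 cytokine genes, 6 were lower and 2 higher, with a median of −0.40, and besides IL32 the NF-κB inhibitor TNFAIP3 and the cytokine LIF fell, from 9.78 ± 1.23 to 5.52 ± 0.716 CPM (SD, n = 3) and from 97.6, 105 and 95.7 CPM to 67.1, 71.1 and 73.2 CPM, while CCL26 rose by 0.58, a call lost without replicate 3 of day 0. Complement genes were higher in 7 and lower in 5 of 14, with C1R up by 0.75, CFI up by 1.64 and C1S and CD55 down by 0.50 and 0.43. Without replicate 1 of day 0, 1 complement gene was lower and C1S was not called.

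Genes of organelles were called lower more often than higher, as were all genes tested (16.4% higher and 19.1% lower). In the most abundant quintile of protein-coding genes, 13.6% were higher and 44.5% lower, and the part of abundance in these counts was not tested. Nuclear genes of the respiratory chain were lower in 11 and higher in 1 of 38, with a median of −0.10, and 18 were lower without replicate 3 of day −2. NDUFA1 and NDUFA4 fell by 0.45 and 0.35, UQCRFS1 and SDHB by 0.32 and 0.29. Of 15 mitochondrially encoded genes, 4 were lower, with MT-ND3 at 903, 989 and 697 CPM at day −2 and 595, 507 and 587 CPM at day 0, and this count was 9 without replicate 1 of day −2. Lysosomal genes were lower in 16 and higher in 8 of 47, or 5 higher without replicate 1 of day −2. The autophagy receptor SQSTM1 fell from 317, 333 and 298 CPM to 229, 218 and 229 CPM, the lysosomal transcription factor TFE3 by 0.38 and the cholesterol exporter NPC1 by 0.36, while its soluble partner NPC2 rose by 0.38. In the osteoblast lineage list, 3 of 15 were higher and 3 lower, RUNX2, the master regulator, from 36.6, 36.7 and 35.8 CPM to 51.5, 54.3 and 52.1 CPM, TNFRSF11B (osteoprotegerin) up by 0.42, with SPP1 (osteopontin) down by 0.37 and ALPL, alkaline phosphatase, from 4.15, 3.20 and 4.16 CPM to 0.994, 1.51 and 1.68 CPM. The call of SPP1 was lost without replicate 1 of day −2 or without replicate 3 of day 0.

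Gene properties went with the direction of change. Among protein-coding genes divided into quintiles by exonic GC content, 29.0% of the lowest quintile (31.0% to 40.9% GC) were higher and 11.1% lower, against 15.5% higher and 32.8% lower in the highest quintile. By exonic length, 9.73% of the shortest quintile were higher and 27.6% lower, against 27.05% and 20.7% of the longest. By level, 13.6% of the highest quintile were higher and 44.5% lower, and the median log2 fold change fell from 0.24 in the lowest quintile to −0.10 in the highest. The same trend with GC content was present in MMP2sh1, with medians of 0.15 in the lowest and −0.16 in the highest quintile, and in MMP2sh2, with 0.17 and −0.15, while in control cells from day 0 to day +2 the medians were −0.04 and 0.07. With an offset that removes a smooth trend with GC content, 6730 genes were called, 2984 higher and 3746 lower, and 5884 of the calls were shared.

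**Figure D4:**
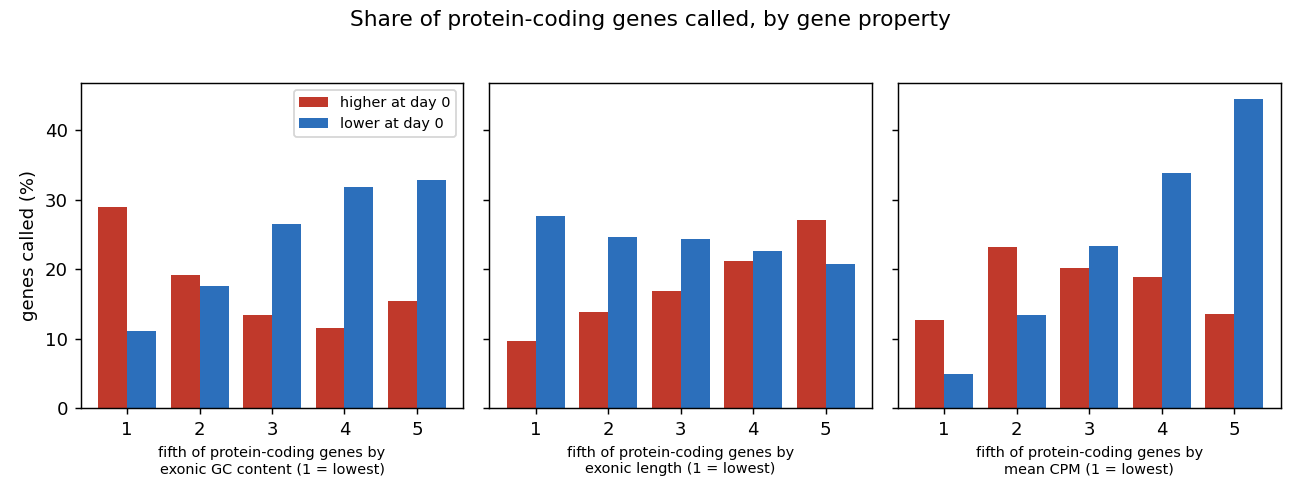
Bars give the percent of protein-coding genes called higher (red) or lower (blue) at day 0 in each quintile of exonic GC content, exonic length and mean CPM, from lowest to highest. Higher calls are most frequent in AT-rich genes (29.0%) and lower calls in the most abundant genes (44.5%).

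The MMP2 knockdown lines, whose libraries are separate from the control libraries, passed through the same step with many of the same genes. MMP2sh1 had 6220 calls of 19019 genes tested (32.7%) and MMP2sh2 5645 of 18613 (30.3%). Of the 6864 control calls, 4392 (64.0%) were also called in MMP2sh1, 4354 of them with the same sign, and these were 70.6% of its own calls. In MMP2sh2, 3845 (56.0% of the control calls and 68.1% of its own) were called and 3794 had the same sign. Across the genes tested in both, the log2 fold changes had a Pearson correlation of 0.62 with MMP2sh1 (18523 genes) and 0.59 with MMP2sh2 (18313 genes), a description over genes that are not independent. A set of 3236 genes was called with the same sign in all 3 lines, 1329 higher and 1907 lower. TXNIP rose by 1.88 and 2.20 on the log2 scale in MMP2sh1 and MMP2sh2, ABCG1 by 1.76 and 1.68, TOP2A by 0.41 and 0.47, and HAS2 by 2.22 and 2.35. FLNC fell by 1.12 and 0.89, SLC7A5 by 0.78 and 0.75, and MMP3 by 2.48 and 2.01.

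A small share of genes was called for a different change in the knockdown lines. The interaction of line and day was called for 279 of 20617 genes (1.35%) with MMP2sh1 and for 750 of 20348 (3.69%) with MMP2sh2, and 171 genes were in both sets, which share the control libraries. Leaving out 1 library gave 144 to 512 calls with MMP2sh1 and 375 to 742 with MMP2sh2. ACTG1 and CTSB changed sign between lines. ACTG1 rose by 0.23 in control and had log2 fold changes of −0.24 in MMP2sh1 and −0.38 in MMP2sh2 (interaction adjusted p = 7.8e-06 and 8.3e-09). CTSB rose by 0.16 in control and had −0.30 and −0.25 in the knockdown lines (interaction adjusted p = 1.5e-04 and 7.4e-05). MMP2, the shRNA target, had 0.56 in MMP2sh1, which did not differ from the control's 0.49 beyond the threshold (interaction adjusted p = 0.88), and 0.13 in MMP2sh2, which did (adjusted p = 0.0032).

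**Figure D5:**
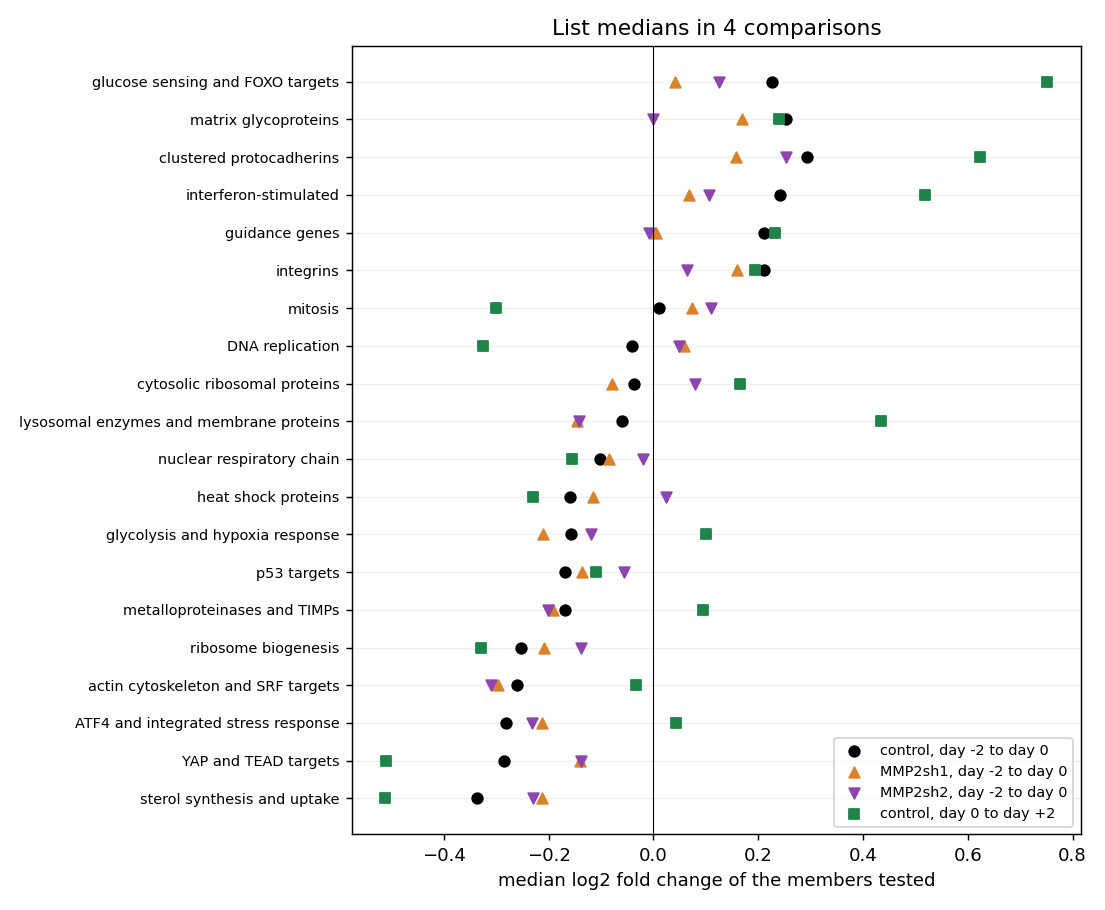
Median log2 fold change of the members of 20 lists in control cells from day −2 to day 0 (black circles), in MMP2sh1 (orange) and MMP2sh2 (purple) over the same days, and in control cells from day 0 to day +2 (green squares). The median of DNA replication is −0.04 at the first control step and −0.32 at the second, and that of lysosomal genes −0.06 and 0.43.

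The following step of the control cells, from confluent to overconfluent, had 8016 calls of 19362 genes tested (41.4%), with 21.3% of the genes higher and 20.1% lower. It shares the day 0 libraries with the first step, so the values are set side by side and no overlap is given. DNA replication genes were higher in 0 and lower in 35 of 42 cases (median −0.32) and mitotic genes in 0 and 35 of 44 (median −0.30), after 9 and 9, and 16 and 7, at the first step. MKI67 had −0.06 at the first step and −0.41 at the second, and TOP2A 0.47 and −0.19. Ribosome biogenesis, at −0.25 and −0.33, and sterol synthesis, at −0.34 and −0.51, had negative medians at both. YAP and TEAD targets had medians of −0.28 and −0.51, with CYR61 at −0.31 and −1.14. Lysosomal genes went from 8 higher and 16 lower at the first step to 36 higher and 2 lower of 46, and antigen presentation from 0 higher and 7 lower to 12 higher and 0 lower. Among single genes, TXNIP rose at both (2.36 and 1.25), IL32 and MMP9 fell at the first (−2.27 and −1.87) and rose at the second (2.17 and 2.03), and LGR4 rose at the first (1.08) and fell at the second (−2.18).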

How the data were processed

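RNA-Seq of poly(A) RNA was measured in 27 libraries of U2OS cells, and the 6 libraries of the pLKO.1 control at day −2 and day 0 are described here. Groups were taken from the sample labels. The authors trimmed reads with Trim Galore 0.6.0, used STAR 2.7.3a with the hg19 build and counted exonic reads, unstranded, with HTSeq 2.0.0. What they deposited are raw counts for each gene symbol, with no normalization. The 5 HTSeq summary lines, 17.1% to 19.0% of the counted total in these 6 libraries, stayed out of library sizes and tests. Reads on overlapping genes were discarded and strand was ignored, so counts of antisense, overlapping and near-identical genes are uncertain.

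Counts were fitted with edgeR 4.0.16 in R 4.3.3 on the 6 libraries (TMM scaling, filterByExpr with minimum count 10 and minimum total 15, quasi-likelihood test, Benjamini-Hochberg adjustment, threshold 0.05). The standard error is the size of the log2 fold change divided by the square root of F. The knockdown lines and the step to day +2 were fitted in the same way on their own libraries, and the interactions on 12 libraries each. Genes named are MMP2 and CTSB, the 10 largest rises and 10 largest falls among called genes with at least 5 CPM and groups apart, the 5 largest changes in CPM each way, up to 4 called members of each list with at least 5 CPM, and 21 genes fixed by name. Some genes that this rule selects are not reported here. Other genes are named in a few places and were chosen after their values were seen. The members and the 37 gene lists and 5 marker lists were chosen with earlier results of these data known. Positions, GC content and length are from GENCODE v44 lifted to GRCh37 (35320 of 55882 symbols matched, 1810 through older symbols), for which exonic length is the union of exons. Promoter windows are from RefSeq. The scripts were tested on simulated data. Alternatives were DESeq2 1.42.0, median-of-ratios and upper-quartile scaling, no filter, at least 10 counts in every library, all 27 libraries in 1 fit, the replicate number as a block and each library left out, with offsets for GC content and length (lowess, span 0.3) chosen after seeing the data. No replicate pair agreed within sampling noise. Total counts set the precision of counting, and p-values measure the spread between cultures of 1 stable line.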

Additional observations from a re-analysis of the deposited data

Results flagged for a closer look

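The change from day −2 to day 0 differed between MMP2sh1 and control for 279 genes by the interaction of line and day, 187 with a difference above 0 and 92 below. Of the genes described here, 24 were among them, and the log2 difference, MMP2sh1 minus control, is given in parentheses. Genes that rose in control and had a lower value in MMP2sh1 were KIF26B (−1.77), PI15 (−1.51), PDGFRA (−0.97), RNF43 (−0.95), IFIT1 (−0.84), DDIT4 (−0.77), LAMA4 (−0.64), FOXF2 (−0.56), IGFBP4 (−0.48), ACTG1 (−0.47), CTSB (−0.46) and SESN3 (−0.36). Genes that fell in control and had a higher value in MMP2sh1 were DIO2 (1.44), KRT34 (1.31), CCDC147 (0.86), NDUFA4 (0.59), LFNG (0.57), MT-RNR1 (0.39), FSTL3 (0.35), HMGCS1 (0.33), SQLE (0.32) and CDH2 (0.27). A larger rise in MMP2sh1 was found for SLC7A11 (0.91). A larger fall in MMP2sh1 was found for MMP9 (−0.76).

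The change from day −2 to day 0 differed between MMP2sh2 and control for 750 genes by the interaction of line and day, 500 with a difference above 0 and 250 below. Of the genes described here, 51 were among them, and the log2 difference, MMP2sh2 minus control, is given in parentheses. Genes that rose in control and had a lower value in MMP2sh2 were KIF26B (−1.29), LAMA4 (−1.06), RNF43 (−0.996), the clone-named lncRNA (−0.84), ST8SIA1 (−0.80), FOXF2 (−0.79), UNC5B (−0.61), DDIT4 (−0.60), ACTG1 (−0.59), SESN3 (−0.57), LGR4 (−0.52), IGFBP7 (−0.48), TRIB2 (−0.47), PHLDA1 (−0.46), IGFBP5 (−0.45), SEMA3C (−0.41), COL3A1 (−0.41), CTSB (−0.40), LTBP3 (−0.38), MMP2 (−0.35), ID3 (−0.31) and NPC2 (−0.29). Genes that fell in control and had a higher value in MMP2sh2 were DIO2 (1.598), CCDC147 (1.39), KRT34 (1.07), CTD-2319I12.1 (1.05), MMP3 (0.96), RNA28S5 (0.94), SLAMF7 (0.84), MT-ND3 (0.67), IL32 (0.64), MT1E (0.53), NDUFA1 (0.52), NDUFA4 (0.51), GADD45A (0.51), SEMA7A (0.49), FLNC (0.46), TAP2 (0.40), HK2 (0.40), LFNG (0.39), PHLDA3 (0.35), S100A6 (0.35), MT-RNR1 (0.32), MYC (0.30), HMGCS1 (0.29), TXNRD1 (0.29), SQLE (0.27), RPLP1 (0.25) and PTRF (0.24). Not called in control but different in MMP2sh2 were COL1A1 (−0.34) and MKI67 (0.29).

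Most of these genes were named for the size of their change in control, and the interaction uses the same control libraries, so smaller changes in the other lines are favored by the choice and are given as values. S100A6, a calcium-binding protein, and MT-RNR1, a mitochondrial ribosomal RNA, belong to lists and were not described above. PDGFRA, the receptor for platelet-derived growth factor on mesenchymal cells, is a marker gene.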

How the results depend on the processing

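The count of calls at confluence in control cells ranged from 6475 (DESeq2) to 6877 (length offset) over 9 alternatives that kept all 6 libraries, and from 5679 to 6621 when 1 library was left out, and 79.6% to 88.2% of the calls were shared in the latter. Upper-quartile scaling moved the split to 3772 higher and 3063 lower, and it or the GC offset brought the medians of DNA replication, mitosis, fatty acid and cytosolic ribosomal protein genes to the other side of 0 or to 0. The interaction with MMP2sh1 had 496 calls with DESeq2 against 279, and 144 to 512 with 1 library left out, with 144 without replicate 2 of MMP2sh1 day 0, 177 without replicate 1 of control day 0, 179 without replicate 1 of control day −2 and 512 without replicate 1 of MMP2sh1 day −2. The interaction with MMP2sh2 had 375 to 742, with 375 and 492 without replicates 1 and 2 of control day −2, 492 and 494 without replicates 1 and 3 of control day 0, and 475 and 397 without replicates 1 and 3 of MMP2sh2 day 0, against 750. The cause of these moves was not tested. Of 187 named genes that were called, 172 were called in all 15 alternatives and none changed sign, and 15 lost the call in at least 1, 9 of them in a fit that kept all 6 libraries. Same-numbered control libraries deviated together with correlations of 0.03, −0.05 and −0.02, so the numbers did not pair the samples. With the replicate block, 6545 genes were called in control, 6978 in MMP2sh1, 5270 in MMP2sh2, 7797 from day 0 to day +2, and 390 and 726 for the interactions. Depth limits genes below about 1 CPM, whose calls rest on few reads.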

Other observations

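Some gene families stood out only when they were looked up by symbol after the values were seen, and their counts are descriptions. None of 72 mitochondrial ribosomal protein genes was higher at day 0 and 43 were lower (median log2 fold change −0.21). Of 37 proteasome subunit genes, 0 were higher and 21 lower (median −0.16), and of 30 RNA polymerase subunit genes 0 and 16 (median −0.18). Among all genes tested, 16.4% were higher and 19.1% lower. By level, 33.8% of the 4th and 44.5% of the highest quintile of protein-coding genes were lower, and the part of abundance in the family counts was not tested.

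A pair of genes of gluconeogenesis and retinoid metabolism had no read at day −2. PCK1, the gluconeogenic carboxykinase, had no read in any day −2 library and 27, 34 and 33 reads at day 0, at least 10.1-fold higher against a floor of 3 counts per library. ALDH1A1, a retinaldehyde dehydrogenase, had no read at day −2 and 12, 13 and 10 reads at day 0 (at least 3.73-fold higher). In the other direction NPPB, which encodes the natriuretic peptide BNP, was at 1.43, 1.155 and 1.25 CPM at day −2 and 0.0649, 0 and 0.146 CPM at day 0 (log2 fold change −4.18, adjusted p = 8.1e-06). These genes were chosen after their values were seen.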
